A study of Mus musculus with 13 samples.

Results

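The pentose phosphate pathway and the kinase gene Shpk were followed in cultured mouse prostate progenitor/stem cells exposed to the active form of vitamin D. The genes were Shpk and the 7 enzymes of the pathway's core, G6pdx, Pgls, Pgd, Rpia, Rpe, Tkt and Taldo1, each taken as the array probe sets whose annotated symbol was that gene. Of these 8 genes, 7 were measured, by 14 probe sets, out of 18193 genes and 45037 probe sets on the arrays. G6pdx, the gene of the first enzyme of the pathway, was not analysed here. A gene with several probe sets is given at the brightest over the 13 arrays, and its other probe sets follow beside it. Shpk was included because of its response at 6 h, so its values at 6 h and every difference that uses them are a description with no test. The pathway enzymes were chosen by function, though with earlier results of these data known.

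The cells came from 10 wk old mice labelled wild-type B1/6; 127/SVEV and were at passage 22. At 70% confluency they received 1,25-dihydroxyvitamin D3 (1,25D) at 100 nM, or 0.1% ethanol as vehicle. RNA was taken after 6 h, or after 48 h with fresh hormone or vehicle every day, and 5 ug of it went onto 1 array per sample. The groups were 1,25D at 6 h (3 arrays), vehicle at 6 h (3 arrays), 1,25D at 48 h (4 arrays) and vehicle at 48 h (3 arrays). These are cultured cells outside their tissue, and whether replicates were cultured apart is not in the labels. Each p-value therefore covers the spread between these arrays and nothing wider, and their small number limits the precision.

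In the oxidative branch of the pathway, glucose 6-phosphate dehydrogenase, 6-phosphogluconolactonase and 6-phosphogluconate dehydrogenase turn glucose 6-phosphate into ribulose 5-phosphate and yield NADPH, the reducing power for lipid synthesis and for the recycling of glutathione. In the non-oxidative branch, an isomerase and an epimerase make ribose 5-phosphate, a building block of nucleotides, and xylulose 5-phosphate, and transketolase and transaldolase link these sugars back to glycolysis. Shpk encodes sedoheptulokinase, which phosphorylates the free sugar sedoheptulose to sedoheptulose 7-phosphate, a substrate of that branch. 1,25D acts through the vitamin D receptor, a nuclear receptor that binds pairs of hexamers in DNA together with the retinoid X receptor.

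The arrays carried the hormone's response and an epithelial pattern. Cyp24a1, the enzyme that breaks down 1,25D, had a log2 signal of 12.81 to 13.21 at 6 h with 1,25D, against 4.40 to 4.78 with vehicle. At 48 h it had 12.18 to 12.56 with 1,25D, against 4.10 to 4.92 with vehicle. Of 10 prostate epithelial markers, 8 were measured, and all lay between the 86.0th and 99.9th percentile of probe sets (median 99.1). The median was 45.0 for 10 fibroblast and stroma markers (12.99 to 64.5), 40.3 for 8 immune (11.5 to 67.1), 27.2 for 6 endothelial (17.9 to 47.9) and 48.4 for 5 neuroendocrine and nerve markers (19.3 to 83.8). Along the first principal component (45.4% of the variance), 48 h and 6 h arrays lay apart, and culture time cannot be told apart from a day of processing. The second component held 23.0% and set 1,25D 48 h replicate 4 and vehicle 6 h replicate 1 apart from the other 11 arrays. Their signals had a narrower spread, with interquartile ranges of 2.95 and 3.04 log2 units, against 3.27 to 3.46 in the others. Without both arrays no member gained or lost a call between 1,25D and vehicle, and the values that moved stand beside the results below.

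Shpk lies on mouse chromosome 11 in head-to-head order with Ctns, the gene of the lysosomal cystine transporter, in the RefSeq gene table of GRCm38.p6. The 250 bases before each start are shown because both genes were higher with 1,25D at 6 h. The Shpk window is chr11:73199232-73199481 on the + strand and the Ctns window chr11:73199020-73199269 on the - strand, both from RefSeq on GRCm38.p6 and 5′ to 3′. The 2 starts lie 463 bases apart, and the windows share 38 bases. Capitals mark 4 hexamers found in vitamin D response elements, on either strand, namely AGGTCA, its variant AGTTCA, and the forms that begin with G, GGGTCA besides GGTTCA.
Shpk: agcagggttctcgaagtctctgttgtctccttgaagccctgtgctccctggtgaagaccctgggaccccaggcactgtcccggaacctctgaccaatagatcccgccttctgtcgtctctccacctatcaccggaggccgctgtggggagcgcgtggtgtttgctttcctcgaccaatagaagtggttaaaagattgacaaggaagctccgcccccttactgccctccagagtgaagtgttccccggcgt
Ctns: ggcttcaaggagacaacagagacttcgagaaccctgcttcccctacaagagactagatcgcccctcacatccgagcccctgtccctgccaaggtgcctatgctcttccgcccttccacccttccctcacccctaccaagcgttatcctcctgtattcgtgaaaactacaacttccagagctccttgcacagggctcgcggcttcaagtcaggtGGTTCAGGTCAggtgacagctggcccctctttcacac
The Shpk window held none of the 4 hexamers. The Ctns window held GGTTCA and AGGTCA near its 3′ end, overlapping by 1 base. A second Ctns start in the same table lies 440 bases from the Shpk start, and its window, chr11:73199043-73199292, held the same pair. At least 1 of these hexamers stood in 38.6% of all 32851 promoter windows of this length, so such a match is common. A direct repeat of them with a spacer of 3 bases, the usual spacing of a vitamin D response element, stood in 13 windows (0.0396%). None of these was a window of a member or of Ctns, Tax1bp3 or Emc6. Only exact matches were counted, so a repeat with a mismatched base would not be found. None of the windows of the 7 measured members held a hexamer, and the G6pdx window held 1.

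Shpk was the member with the large response to 1,25D, and it had it at 6 h. The Shpk probe set, 1452853_at, had log2 signals of 8.71, 8.93 and 8.96 with 1,25D at 6 h, against 6.39, 6.67 and 6.60 with vehicle at 6 h. Every 1,25D array lay above every vehicle array, with no overlap. The means were 8.87 ± 0.135 and 6.55 ± 0.142 (SD, n = 3 each), a difference of 2.31 on the log2 scale, or 4.97-fold. With an offset of 32 added to the linear signals the difference was 1.98. No test is given, since these values chose the gene.

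At 48 h the Shpk signal with 1,25D was near that with vehicle. Its log2 signals were 7.18, 7.21, 7.07 and 6.68 with 1,25D, against 6.86, 6.76 and 6.98 with vehicle. The groups overlapped only through 1,25D replicate 4, one of the arrays that stand apart, and the other 1,25D arrays lay above all vehicle arrays. The means were 7.03 ± 0.247 (SD, n = 4) and 6.87 ± 0.109 (SD, n = 3). The difference was 0.17 on the log2 scale (SE 0.150, 95% interval -0.15 to 0.49, 0.899-fold to 1.41-fold), and limma did not call it at an unadjusted p of 0.280. Without the 2 arrays that stand apart it was 0.29, with a limma Benjamini-Hochberg adjusted p of 0.395. The Shpk response at 48 h was 2.14 log2 units below that at 6 h, or 1.94 below it without the 2 arrays, again as a description.

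In order of level, Shpk was highest with 1,25D at 6 h, then with 1,25D at 48 h, with vehicle at 48 h and with vehicle at 6 h. Of the neighbours in this order, the 2 groups at 48 h did not differ beyond their spread. Within 1,25D cultures the Shpk mean at 48 h was 1.83 log2 units below that at 6 h, with no overlap. Within vehicle cultures it was 0.31 above that at 6 h, also with no overlap, since the lowest 48 h array had 6.76 and the highest 6 h array 6.67. Of all genes, 23.4% in 1,25D and 18.6% in vehicle cultures were called between the times. The share of all genes with no overlap between the times is not given. A lack of such overlap, here and for the enzymes below, is therefore only a description. In bulk RNA, fewer cells with a transcript and less of it per cell cannot be told apart.

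**Figure D1:**
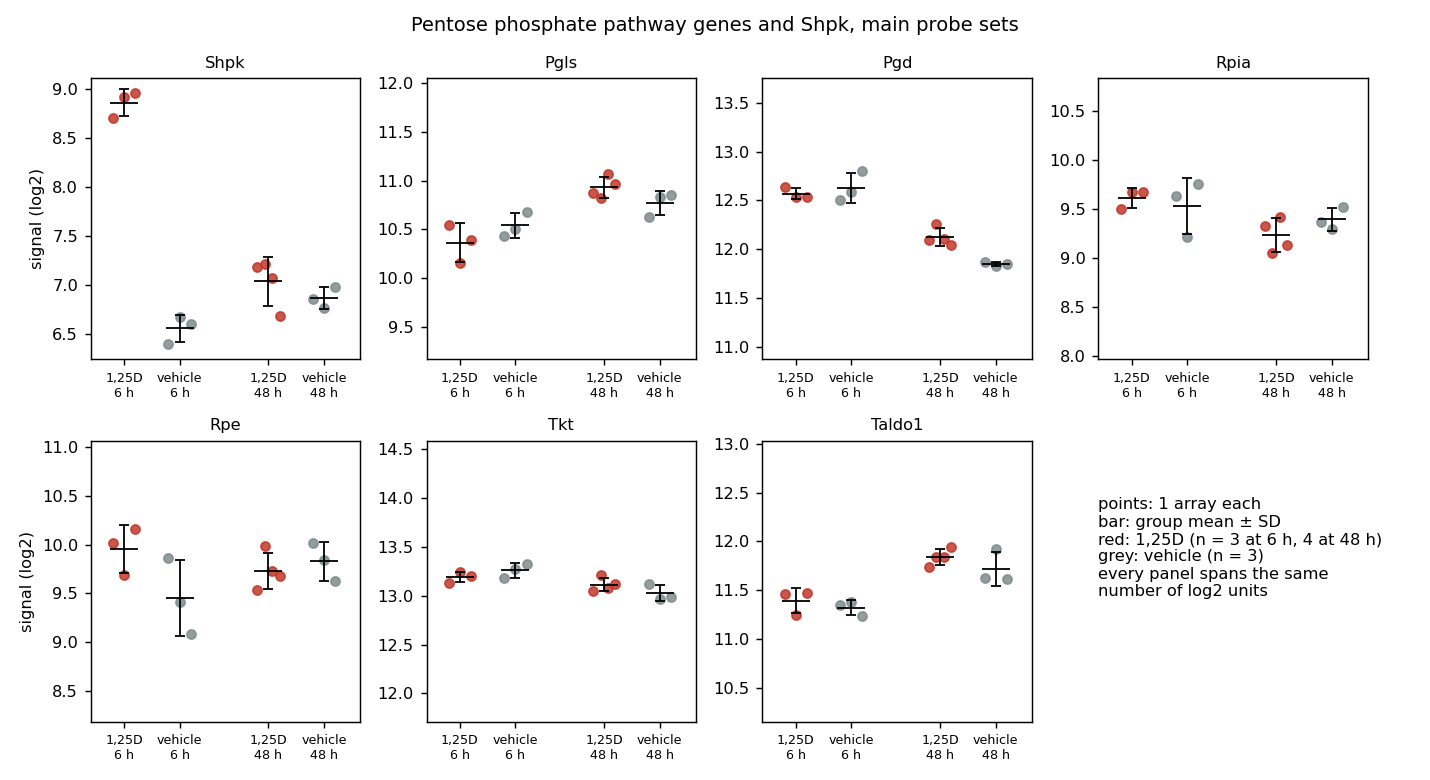
Log2 signal (vertical axes, every panel spanning the same number of log2 units) of the main probe set of each measured gene in 1,25D and vehicle arrays at 6 h and 48 h. Points are arrays and bars are group means ± SD. Shpk with 1,25D at 6 h, at 8.71 to 8.96, stands above its other groups, at 6.39 to 7.21, and Pgd is lower at 48 h than at 6 h in both treatments.

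None of the 6 tested pathway enzymes was called between 1,25D and vehicle at 6 h. Over all genes, 0.852% were called there by limma with Benjamini-Hochberg adjustment over all probe sets at an adjusted p under 0.05, and 1 of the 6 enzymes, Rpe, had an unadjusted p under 0.05. At 48 h none of the 7 measured members was called, against 2.39% of all genes, and 1, Pgd, had an unadjusted p under 0.05. The median difference over the members was 0.00 at 6 h (without Shpk) and 0.12 at 48 h on the log2 scale, against -0.02 and 0.00 over all genes. None of the 6 tested enzymes was called for a different response at 48 h than at 6 h, against 0.632% of all genes. Pgd and Rpe had unadjusted p-values under 0.05 in that limma test. The share of all genes with an unadjusted p under 0.05 is not given, so counts at that threshold are only a description. The 95% intervals below give the sizes that these arrays leave possible.

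**Figure D2:**
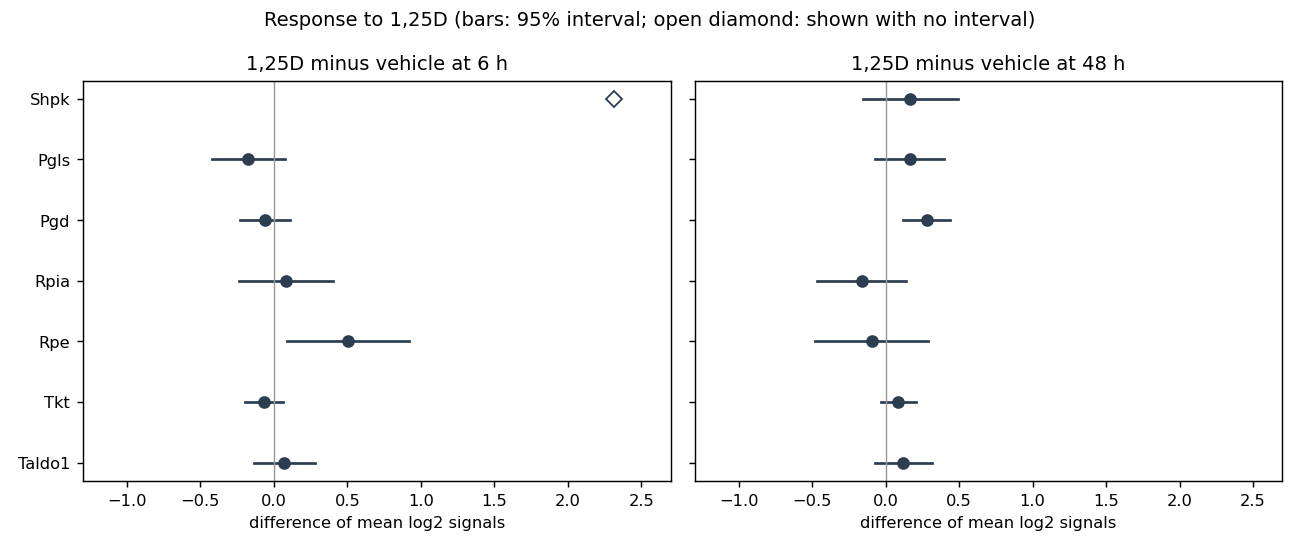
Difference of mean log2 signals, 1,25D minus vehicle, at 6 h (left) and 48 h (right) for the 7 measured genes. Circles are estimates with 95% intervals from limma, and the open diamond is Shpk at 6 h, shown without an interval because that value chose the gene. Shpk at 6 h lies at 2.31, and the other estimates lie between -0.17 and 0.50.

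In the oxidative branch, Pgls encodes 6-phosphogluconolactonase, which opens the lactone ring made by the first step. Its log2 signals (1417722_at) at 6 h were 10.55, 10.15 and 10.39 with 1,25D, against 10.44, 10.50 and 10.68 with vehicle. At 48 h they were 10.88, 10.82, 11.06 and 10.96 with 1,25D, against 10.63, 10.83 and 10.85 with vehicle. The groups overlapped at both times. The difference between 1,25D and vehicle was -0.17 at 6 h (95% interval -0.42 to 0.07) and 0.16 at 48 h (-0.07 to 0.40). The response at 48 h minus that at 6 h was 0.34 for Pgls, with an unadjusted p of 0.0514 and a limma adjusted p of 0.889.

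Pgd, 6-phosphogluconate dehydrogenase, catalyses the second step that yields NADPH. At 48 h its main probe set, 1436771_x_at, had log2 signals of 12.09, 12.26, 12.11 and 12.04 with 1,25D, against 11.87, 11.83 and 11.85 with vehicle. All 1,25D arrays lay above all vehicle arrays, as was the case for 5.47% of all genes. The difference was 0.28 (SE 0.0735, 95% interval 0.12 to 0.44, 1.21-fold), with an unadjusted p of 0.00214 and a limma adjusted p of 0.113, so that it did not pass the threshold. It passed with array quality weights (adjusted p 0.0124), with the mean of all Pgd probe sets in place of the brightest (0.0329) and without vehicle 6 h replicate 3 (0.0407). Over all alternatives its limma adjusted p ran from 0.0124 to 0.372.

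The other 3 Pgd probe sets gave differences of 0.29 (1423706_a_at), 0.26 (1437380_x_at) and 0.23 (1438627_x_at) at 48 h, with limma adjusted p-values of 0.138, 0.102 and 0.221. In each of them the 1,25D arrays again lay above the vehicle arrays. The probe sets share the same transcripts and RNA and are not replicates, and those ending in _x_at can match other transcripts. At 6 h the main Pgd probe set had 12.64, 12.54 and 12.53 with 1,25D, against 12.50, 12.58 and 12.80 with vehicle. These overlapped, with a difference of -0.06 (95% interval -0.23 to 0.11). The response of Pgd at 48 h minus that at 6 h was 0.34 (95% interval 0.11 to 0.57), with an unadjusted p of 0.00745 and a limma adjusted p of 0.468.

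**Figure D3:**
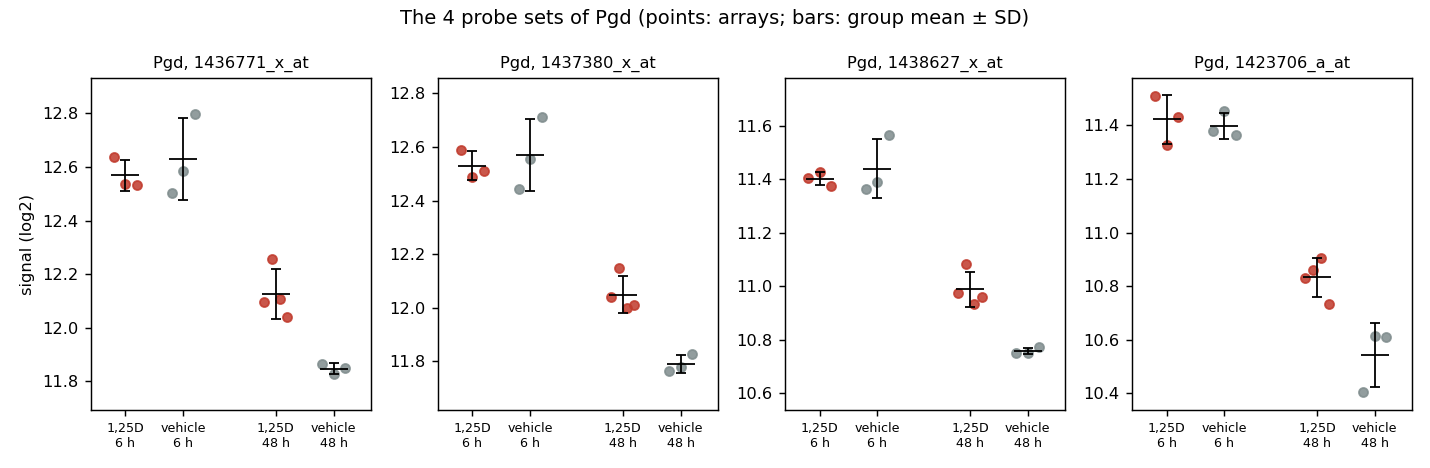
Log2 signal of the 4 probe sets of Pgd in each array (points) with group means ± SD (bars). Every panel spans the same number of log2 units around its own centre. In all 4, the 1,25D arrays at 48 h lie above the vehicle arrays at 48 h, and both lie below the 6 h arrays.

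In the non-oxidative branch, Rpe, ribulose-phosphate 3-epimerase, makes xylulose 5-phosphate. Its main probe set, 1416706_at, had log2 signals at 6 h of 10.02, 9.69 and 10.16 with 1,25D, against 9.86, 9.41 and 9.08 with vehicle. The groups overlapped through vehicle replicate 1, one of the arrays that stand apart. The Rpe difference was 0.50 (SE 0.191, 95% interval 0.09 to 0.92), with an unadjusted p of 0.0202 and a limma adjusted p of 0.648. Without the 2 arrays that stand apart it was 0.71, with an adjusted p of 0.105. The other Rpe probe sets had differences of 0.16 (1416705_at) and 0.00 at 6 h. The one at 0.00, 1448444_at, had mean signals of 3.63 to 3.80, at the 5.48th percentile of probe sets.

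At 48 h the Rpe signals were 9.54, 9.98, 9.73 and 9.68 with 1,25D, against 10.02, 9.84 and 9.62 with vehicle, and overlapped. The difference was -0.10 (95% interval -0.48 to 0.29). The Rpe response at 48 h minus that at 6 h was -0.60, with an unadjusted p of 0.0390 and a limma adjusted p of 0.841. Rpia, ribose 5-phosphate isomerase, had 9.50, 9.67 and 9.68 with 1,25D at 6 h, against 9.63, 9.21 and 9.75 with vehicle. At 48 h Rpia had 9.33, 9.05, 9.42 and 9.13 with 1,25D, against 9.37, 9.30 and 9.53 with vehicle. The groups overlapped at both times, with differences of 0.08 (95% interval -0.24 to 0.40) at 6 h and -0.16 (-0.46 to 0.14) at 48 h.

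Tkt and Taldo1 exchange carbon units between sugar phosphates. Tkt, transketolase (1439443_x_at), had 13.13, 13.24 and 13.20 with 1,25D at 6 h, against 13.18, 13.28 and 13.32 with vehicle. At 48 h it had 13.04, 13.21, 13.08 and 13.12 with 1,25D, against 13.12, 12.97 and 12.99 with vehicle. The groups overlapped at both times, with differences of -0.07 (95% interval -0.20 to 0.06, 0.872-fold to 1.04-fold) at 6 h and 0.09 (-0.03 to 0.21, 0.976-fold to 1.16-fold) at 48 h. Its other probe sets, 1451015_at and 1436605_at, gave -0.01 and 0.03 at 6 h and 0.08 and 0.29 at 48 h, none called.

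Taldo1, transaldolase (1425129_a_at), had 11.46, 11.24 and 11.47 with 1,25D at 6 h, against 11.35, 11.38 and 11.23 with vehicle. At 48 h Taldo1 had 11.74, 11.84, 11.84 and 11.95 with 1,25D, against 11.63, 11.92 and 11.61 with vehicle. The groups overlapped at both times. The differences were 0.07 (95% interval -0.14 to 0.28) at 6 h and 0.12 (-0.08 to 0.31) at 48 h.

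With time in culture the enzymes differed in both directions. In 1,25D cultures, 3 of 6 tested enzymes were called at 48 h against 6 h, 2 higher and 1 lower, where 23.4% of all genes were called (10.9% higher and 12.5% lower). In vehicle cultures 3 of 6 were called, 1 higher and 2 lower, where 18.6% of all genes were called (9.84% higher and 8.75% lower). The 2 comparisons have no array in common.

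Pgd fell at 48 h. In 1,25D cultures it fell by 0.44 on the log2 scale (SE 0.0735, 0.735-fold, limma adjusted p 0.000692), with 12.04 to 12.26 at 48 h, against 12.53 to 12.64 at 6 h. In vehicle cultures Pgd fell by 0.78 (SE 0.0785, 0.581-fold, adjusted p 1.75e-05), with 11.83 to 11.87 at 48 h, against 12.50 to 12.80 at 6 h. Every other probe set of Pgd was called lower too, by differences of -0.41 to -0.59 in 1,25D cultures and -0.68 to -0.86 in vehicle cultures.

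Taldo1 rose at 48 h, by 0.45 in 1,25D cultures (SE 0.0903, 1.37-fold, limma adjusted p 0.00296) and by 0.40 in vehicle cultures (SE 0.0966, 1.32-fold, adjusted p 0.0134), with no overlap in either. Its call in vehicle cultures was lost without vehicle 48 h replicate 2 (adjusted p 0.0685), without vehicle 6 h replicate 3 (0.0526) and when only the vehicle groups were fitted (0.0653). Pgls rose in 1,25D cultures, by 0.57 (SE 0.108, 1.48-fold, adjusted p 0.00203), and its arrays did not overlap. In vehicle cultures the Pgls difference was 0.23 (95% interval -0.02 to 0.48, adjusted p 0.290), and the test of the difference between treatments is the response difference of 0.34 given above, which was not called.

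In 1,25D cultures the Tkt difference was -0.08 and was not called. Tkt fell in vehicle cultures by 0.23 (SE 0.0605, 0.851-fold, limma adjusted p 0.0202), with 12.97 to 13.12 at 48 h, against 13.18 to 13.32 at 6 h. This call rests on the main Tkt probe set. The others gave -0.09 (1451015_at, adjusted p 0.775) and -0.48 (1436605_at, adjusted p 0.0740), and the call was lost without vehicle 48 h replicate 2 or 3 or vehicle 6 h replicate 2 or 3 (adjusted p of 0.0587 to 0.0875). Rpia had a difference of -0.38 in 1,25D cultures (adjusted p 0.0862), where all 48 h arrays lay below all 6 h arrays, and -0.14 in vehicle cultures. In 1,25D cultures Rpia passed the threshold when every gene was given as the mean of its probe sets (adjusted p 0.0479) and without vehicle 6 h replicate 2 (0.0383). Rpe had -0.22 in 1,25D cultures and 0.38 in vehicle cultures (adjusted p 0.296), both with overlap. Without the 2 arrays that stand apart, Rpe was called higher in vehicle cultures, at 0.58 (adjusted p 0.0405).

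Genes beside Shpk on chromosome 11 were listed with earlier results of these data known, so the count of them called is a description. Of 8 listed neighbours 6 were measured, and 3 rose with 1,25D at 6 h, where 0.687% of all genes were called higher. In the RefSeq order these 3, Emc6, Tax1bp3 and Ctns, run next to each other up to Shpk. Beyond them P2rx5 had a difference of -0.13 and Itgae 0.24 (adjusted p 0.877), and on the other side of Shpk Trpv1 had 0.00, none called. Haspin, Ncbp3 and Aspa, added after their values were seen, had 0.18, 0.12 and 0.35 and were not called. For Itgae and Aspa all 1,25D arrays at 6 h still lay above all vehicle arrays, as for 5.68% of all genes.

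Ctns (1416274_at) had log2 signals of 7.90 to 8.05 in the 3 arrays with 1,25D at 6 h, against 7.23, 6.61 and 6.64 with vehicle. The groups did not overlap (as for 5.68% of all genes in this direction), and the difference was 1.15 (SE 0.204, 2.23-fold, limma adjusted p 0.0159). The Ctns call was lost under quantile normalization (adjusted p 0.108), when only the 6 h groups were fitted (0.0858) and without any single 1,25D 6 h array or vehicle 6 h replicate 2 or 3 (0.0603 to 0.0979). Without the 2 arrays that stand apart it was 1.36, with an adjusted p of 0.000972. At 48 h Ctns had 8.14, 7.76, 8.16 and 8.47 with 1,25D, against 7.74, 8.19 and 8.10 with vehicle, with overlap and a difference of 0.12. Ctns with vehicle was higher by 1.18 at 48 h than at 6 h (adjusted p 0.00138), so that the level with 1,25D at 6 h lay among those of both 48 h groups.

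Tax1bp3, a PDZ-domain protein gene (1424169_at), had 11.97, 11.78 and 11.81 with 1,25D at 6 h, against 10.97, 11.20 and 10.84 with vehicle. The Tax1bp3 difference was 0.85 (SE 0.0991, 1.80-fold, limma adjusted p 0.000589), with no overlap, and it stayed called under every alternative (adjusted p up to 0.0296). Emc6, a subunit of the endoplasmic reticulum membrane protein complex (1448882_at), had 11.24, 11.24 and 11.26 with 1,25D at 6 h, against 10.87, 10.82 and 10.64 with vehicle. Its difference was 0.47 (SE 0.0859, 1.38-fold, adjusted p 0.0211), also with no overlap. The Emc6 call was lost in 8 of 26 alternatives, among them the fit of the 6 h groups only (adjusted p 0.267), vehicle 6 h replicate 3 left out (0.0856) and each 1,25D 6 h array left out in turn (0.0707 to 0.109).

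Emc6 and Tax1bp3, like Ctns and Shpk, face away from each other in the RefSeq table, with starts 41 bases apart. At 48 h neither was called. Tax1bp3 had 11.71, 11.79, 11.77 and 11.90 with 1,25D, against 11.65, 11.84 and 11.60 with vehicle, a difference of 0.10 with overlap. Emc6 had 10.32, 10.47, 10.53 and 10.40 with 1,25D, against 10.22, 10.24 and 10.25 with vehicle, a difference of 0.19 with no overlap (adjusted p 0.618). The response at 48 h minus that at 6 h was -0.75 for Tax1bp3 (adjusted p 0.0285), -1.03 for Ctns (adjusted p 0.282) and -0.28 for Emc6 (adjusted p 0.805), so that it was called for Tax1bp3 alone among these.

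**Figure D4:**
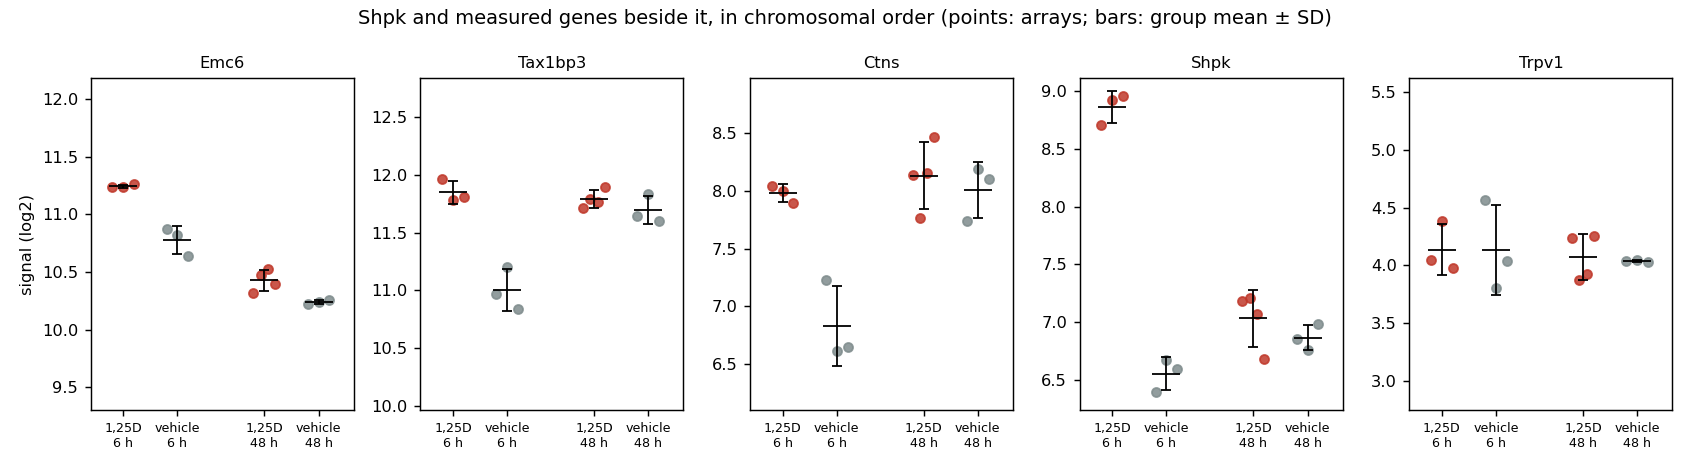
Log2 signal of Emc6, Tax1bp3, Ctns, Shpk and Trpv1, in their order on chromosome 11, in each array (points) with group means ± SD (bars). The first 4 genes are higher with 1,25D than with vehicle at 6 h, by 0.47, 0.85, 1.15 and 2.31 log2 units, and Trpv1 differs by 0.00.

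The genes whose centred profile over the 13 arrays was most like that of Shpk were none of its neighbours and no pathway enzyme. Likeness was measured as the root-mean-square difference of the log2 profiles, each centred on its own mean. Apcdd1, a membrane inhibitor of Wnt signalling, was closest at 0.218, followed by Pdgfb, a platelet-derived growth factor chain, at 0.259 and Adgra1, an adhesion G protein-coupled receptor, at 0.299. Ets1, a transcription factor, and Gpsm1, a modulator of G protein signalling, had 0.361 and 0.379, against a median of 0.914 over all genes. Their differences between 1,25D and vehicle were 1.39 to 2.69 at 6 h and 0.02 to 0.66 at 48 h. The measure includes the 6 h values that chose Shpk, so this pattern follows from the choice of genes, and these values and ranks are a description. Emc6 ranked 72 by this measure, Tax1bp3 512 and Ctns 6123, and the nearest pathway enzyme, Rpe, ranked 1189.

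Genes that lead into and out of the pathway were taken from 6 lists. Their counts of called genes stand against 0.852% of all genes called with 1,25D at 6 h and 2.39% at 48 h. Those shares do not apply to counts at an unadjusted p under 0.05, which here and below are only a description. With time, 10.9% of all genes were called higher and 12.5% lower in 1,25D cultures, and 9.84% higher and 8.75% lower in vehicle cultures. Of 14 paralogs of the enzymes and side entries to pentose sugars, all measured, none was called between 1,25D and vehicle at either time (medians -0.02 at both), and 1 at each time had an unadjusted p under 0.05. With time, 3 of the 14 rose and 1 fell in 1,25D cultures, and 3 rose in vehicle cultures. The one that fell was Xylb, xylulokinase, with a difference of -0.72 in 1,25D cultures (limma adjusted p 0.0218) and -0.48 in vehicle cultures (0.191). Dcxr, an L-xylulose reductase, rose by 1.86 in 1,25D and 1.85 in vehicle cultures, and Pgm1, a phosphoglucomutase, by 1.22 in 1,25D and 1.39 in vehicle cultures. Of 16 other genes of NADPH supply, none was called between 1,25D and vehicle, with 0 unadjusted p-values under 0.05 at 6 h and 3 at 48 h. In 1,25D cultures 2 of the 16 rose and 5 fell with time, and in vehicle cultures 2 rose and 6 fell, so that the risers were near the share over all genes. The folate enzyme gene Mthfd1 fell by 1.28 in 1,25D and 1.40 in vehicle cultures.

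Nucleotide synthesis, as a whole, draws on ribose 5-phosphate. Of its 20 measured genes, none was called with 1,25D at 6 h (2 with an unadjusted p under 0.05) and 1 at 48 h. That one, Adssl1, an adenylosuccinate synthase, had a difference of 0.66 (limma adjusted p 0.0421), and its call was lost in 12 of 26 alternatives. With time, 14 genes fell and 1 rose in 1,25D cultures (median -0.61), and 12 fell and 1 rose in vehicle cultures (median -0.67), against medians of 0.01 in 1,25D and -0.03 in vehicle cultures over all genes, of which 12.5% and 8.75% were called lower. Prps1, which makes phosphoribosyl pyrophosphate from ribose 5-phosphate, fell by 1.26 in 1,25D and 1.24 in vehicle cultures. Cad, which starts pyrimidine synthesis, fell by 2.03 in 1,25D and 2.12 in vehicle cultures.

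Among 11 measured reductases and synthases that use NADPH, 1 rose with 1,25D at 6 h and 3 at 48 h, where 0.852% and 2.39% of all genes were called. Gsr, glutathione reductase, rose at both times. Gsr had log2 signals of 10.97, 11.03 and 10.91 with 1,25D at 6 h, against 10.07, 9.97 and 10.22 with vehicle. At 48 h it had 10.49, 10.01, 10.30 and 10.48 with 1,25D, against 9.18, 9.30 and 9.48 with vehicle. Neither time had overlap. The differences were 0.89 (SE 0.131, 1.85-fold, limma adjusted p 0.00385) and 1.00 (SE 0.122, 2.00-fold, adjusted p 0.00047). The carbonyl reductase gene Cbr3 rose at 48 h by 1.28 (adjusted p 0.000532). Blvrb, biliverdin reductase B, rose by 0.65 (adjusted p 0.0292), a call lost in 7 of 26 alternatives. With time, 3 of the 11 rose and 4 fell in 1,25D cultures, and 1 rose and 6 fell in vehicle cultures. Gsr was among those that fell, by 0.65 in 1,25D cultures (limma adjusted p 0.00186) and 0.76 in vehicle cultures (0.00131).

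Of 14 measured targets of Nrf2, the factor known to drive several pathway enzymes, 2 rose with 1,25D at 48 h and none at 6 h. An unadjusted p under 0.05 was found for 6 at 48 h and 0 at 6 h, counts with no share over all genes to set them against. The called genes were Slc7a11, the cystine-glutamate exchanger, by 1.52, and the glutathione transferase gene Gsta4, by 1.17. With time, 6 of the 14 fell and 3 rose in 1,25D cultures, and 9 fell and 1 rose in vehicle cultures, where 23.4% of all genes were called in 1,25D and 18.6% in vehicle cultures. The list shares Me1, Nqo1 and Txnrd1 with those above. Of 17 measured genes of upper glycolysis, none was called with 1,25D at 6 h, and 4 had an unadjusted p under 0.05. At 48 h 2 fell, the fructose bisphosphatases Fbp1 (-1.01) and Fbp2 (-1.20), and the Fbp2 call was lost in 6 of 26 alternatives. With time, 7 of the 17 rose in 1,25D cultures, and 9 rose and 2 fell in vehicle cultures, where 10.9% of all genes were called higher in 1,25D and 9.84% in vehicle cultures. The aldolase gene Aldoc rose by 3.64 in 1,25D and 3.75 in vehicle cultures.

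**Figure D5:**
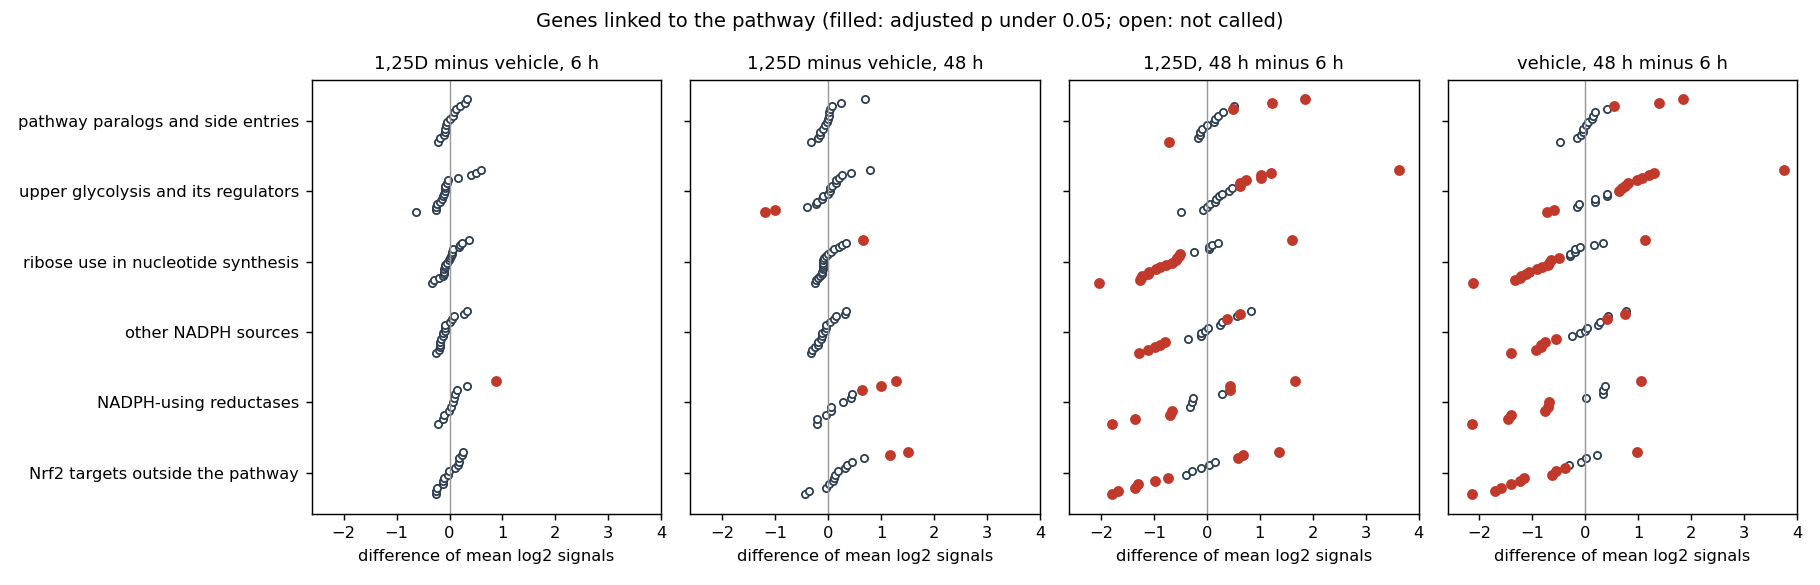
Differences of mean log2 signals (horizontal axes) of the measured genes of 6 lists linked to the pathway, for 1,25D minus vehicle at 6 h and 48 h and for 48 h minus 6 h in 1,25D and in vehicle cultures. Each point is a gene, filled where its limma adjusted p was under 0.05. At 6 h 1 gene, Gsr at 0.89, is filled. With time, most genes of the list of ribose use in nucleotide synthesis are filled to the left, down to -2.12.

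Some markers of other cells moved with 1,25D at 48 h, beside the Pgd, Gsr, Cbr3 and other 48 h values above. Cd68, a lysosomal and macrophage marker, had 7.66 to 8.22 with 1,25D, against 6.69 to 6.70 with vehicle, whereas Ptprc, which all white blood cells carry, had 3.83 to 4.35 with 1,25D, against 4.20 to 4.30 with vehicle. The log2 of the summed signal of 8 immune markers was 9.08 to 9.40 with 1,25D, against 8.78 to 8.83 with vehicle. Such a sum weighs the brightest genes most. The median difference over these 8 was 0.07, and Cd68 was the only one called. Ncam1, a neural adhesion molecule, rose by 0.88. The log2 summed signal of the 5 neuroendocrine and nerve markers was 9.53 to 9.60 with 1,25D, against 8.79 to 8.90 with vehicle. Their median difference was 0.14, and Ncam1 was the only one called. The epithelial keratin genes Krt8 and Krt18 fell by 0.43 and 0.34, and the 8 epithelial markers summed to 15.78 to 15.83 with 1,25D, against 15.94 to 16.02 with vehicle. No other measured marker was called with 1,25D at 48 h, and the part of these cells in the results was not tested.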

How the data were processed

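Per the labels, total RNA of 13 samples was hybridised to 1 oligonucleotide array each. The deposited values are on a log2 scale (3.05 to 14.45, array medians 5.57 to 5.67) and were used as given, with no offset. The submitters' processing notes name MAS5, and further normalization is not given in the sources used here. Of 45101 probe sets, 64 controls were removed, and 34945 had 1 symbol in the platform annotation, 932 several and 9160 none. Probe sets with several genes named no gene. No column of another sample was present.

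Means of the 4 groups were fitted over all probe sets and arrays in limma 3.58.1 (R 4.3.3, eBayes with intensity trend, two-sided), with Benjamini-Hochberg adjustment over 45037 probe sets. "Rose" and "fell" mean an adjusted p under 0.05. The scripts were tested on simulated data. Tables and figures used Python 3.11.15, pandas 2.3.3 and matplotlib 3.10.9. Named were all members, called genes of each list (up to 4 by smallest p; for time the examples were chosen with values seen), the 5 genes most like Shpk and its neighbours. Members and lists were chosen with earlier results of these data known. Of 155 list entries, 138 were measured. Alternatives were other scalings, an offset of 32, other eBayes settings, a filter on the dimmest 40%, other probe set rules, a fold of at least 1.5, array weights, the replicate block and left-out arrays.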

Additional observations from a re-analysis of the deposited data

Results flagged for a closer look

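Of the tested genes of the pathway, the lists and the markers, 6 responded to 1,25D differently at 48 h than at 6 h, by limma's test of the difference itself (Benjamini-Hochberg adjusted p under 0.05). The lists and markers held 138 measured entries, some in more than 1 list. Over all genes, 0.632% were called in this test. The response at 48 h minus that at 6 h was 1.75 for Slc7a11, 1.35 for Cd68 and 0.99 for Gsta4 on the log2 scale. It was -0.92 for Fbp1, -0.75 for Tax1bp3 and -0.34 for Krt18. No pathway enzyme was among them, and no group of 4 arrays held a member value far enough from the rest to stand out.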

How the results depend on the processing

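Over 58 results for single genes and 26 alternatives, 1432 values showed no change of call, 58 lost a call and 7 gained one. Another 4, untested values of Shpk, moved by more than the spread between replicates. No call reversed. Some differences that were not called changed sign, as for Rpia (-0.08 to 0.19) and Pgd (-0.12 to 0.02) with 1,25D at 6 h. The number of members called at 48 h was 0, and 1 (Pgd) with array quality weights and with the mean of all probe sets, and 0 to 1 with each array left out in turn. For 1,25D at 48 h against 6 h it was 3, 0 with a fold of at least 1.5, and 4, with Rpia added, with the mean of all probe sets and without vehicle 6 h replicate 2. For vehicle at 48 h against 6 h it was 3, and 1 when only the vehicle groups were fitted or a fold of at least 1.5 was asked, and 1 to 4 with each array left out. Replicate numbers were not taken as pairs, since the deviations of same-numbered arrays did not all correlate at over 0.1 (0.28, 0.22 and 0.07 at 6 h and -0.01, -0.53 and 0.39 at 48 h). At 6 h these were all above 0, against -0.27 to 0.15 between other numbers, but vehicle replicate 3 correlated best with 1,25D replicate 2. With the replicate block 0 members were called with 1,25D at 6 h and 0 at 48 h, and Emc6 (adjusted p 0.0901), Blvrb (0.0737) and Tkt in vehicle cultures (0.0503) lost their calls. Over all genes, 155 were called with 1,25D at 6 h, against 68 when only these groups were fitted and 248 without the 2 arrays that stand apart. At 48 h 434 were called, against 1043 with array quality weights and 260 to 275 without a vehicle 48 h array. For the response difference 115 were called, against 262 with array quality weights, 183 with the mean of all probe sets, 199 without the 2 arrays, 66 without 1,25D 6 h replicate 1 and 75 without vehicle 48 h replicate 2. Detection calls were not used, so whether dim probe sets lay above background was not assessed. Differences of dim probe sets may be understated or noisy.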
